A study of Homo sapiens with 12 samples.

Results

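A set of 8 genes chosen by symbol was followed in a human lung carcinoma line: CH25H, whose product makes an oxysterol, and 7 genes of sterol synthesis and its control, namely HMGCS1, SQLE, INSIG1, IDI1, FDFT1, DHCR7 and SREBF2. They are 8 of the 58671 gene rows in the table. The cells were A549, an epithelial line, with RNase L deleted (RLKO) or in the parental form (WT). There were 4 groups of 3 samples: RLKO cells 6 h after transfection of poly(I:C) at 500 ng/ml, RLKO cells left untreated, WT cells given the same poly(I:C) for the same time, and untreated WT cells. Poly(I:C) is a synthetic double-stranded RNA that cells read as a sign of viral infection, and RNase L is the endoribonuclease that such RNA switches on through 2-5A. Whether RLKO is a single clone was not given in the sources used here.

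Cholesterol is built from acetyl-CoA through mevalonate, isoprenoid phosphates, squalene and lanosterol. The transcription factor SREBP2 turns on the genes of this route when sterol in the endoplasmic reticulum is low, and INSIG proteins hold it back when sterol is plentiful. CH25H converts cholesterol to 25-hydroxycholesterol, which holds back SREBP processing and limits the entry of many enveloped viruses. In mouse macrophages CH25H is known as an interferon-stimulated gene.

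CH25H was nearly undetected without poly(I:C) and was above 10 FPKM after it in both genotypes, while the sterol genes stayed within a few-fold of their untreated levels. Levels are the authors' FPKM, that is, fragments scaled to transcript length and to library size. Each group has 1 such value for its 3 samples together, and the spread among these is unknown. A gene is said to rise or fall where the authors' deposited q-value from Cuffdiff, adjusted by them over their tested genes, was under 0.05. By that rule none of the 7 members with at least 1 FPKM in a group was called in RLKO or in WT. Over all 22087 rows that passed the same filter, 0.539% were called in RLKO (0.512% raised and 0.0272% lowered) and 7.83% in WT (4.48% raised and 3.35% lowered). At an unadjusted p under 0.05, Cuffdiff had 1 of the 7 in RLKO, which was CH25H, and 0 of the 7 in WT, against 3.67% and 19.2% of all rows. CH25H passed the filter through its treated groups alone. The comparisons between the genotypes carry no test.

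Regulatory sequence was looked at in the 250 bases before each RefSeq transcription start (GRCh38.p14), for which 6 of the 8 members had 10 entries; SQLE and FDFT1 had none. The stretch before CH25H is shown because it lies next to the gene with the highest change of the 8. Capitals mark TGACNTCA, a pattern bound by CREB and ATF factors, and the GC box GGGCGG.
CH25H, chr10:89207318-89207567, minus strand: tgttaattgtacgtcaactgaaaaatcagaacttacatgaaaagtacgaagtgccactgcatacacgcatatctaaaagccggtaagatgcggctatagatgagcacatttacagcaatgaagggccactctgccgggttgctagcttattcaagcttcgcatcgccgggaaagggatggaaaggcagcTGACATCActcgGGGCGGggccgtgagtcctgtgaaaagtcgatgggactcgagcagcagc
Of 35116 such windows over all genes, read on both strands, 6.87% held TGACNTCA and 42.6% held GGGCGG. Among the 10 member windows TGACNTCA was also in DHCR7, and GGGCGG was in 9 of 10. Neither the NF-kB pattern searched (GGG and TTTCC with 2 open bases between them, in 1.73% of all windows) nor that of the interferon-stimulated response element (GAAA and GAAA with 2 open bases between them, in 3.02%) was in any of the 10.

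The stretch before SREBF2, which encodes the SREBP2 precursor, is shown because it was the single member window with the SRE-1 letters, the sterol regulatory element that SREBP binds. It is printed up to the first base that GENCODE gives to the gene. The first run of capitals marks that element and the second marks CCAAT, the NF-Y box, here on the other strand.
SREBF2, chr22:41832855-41833078, plus strand: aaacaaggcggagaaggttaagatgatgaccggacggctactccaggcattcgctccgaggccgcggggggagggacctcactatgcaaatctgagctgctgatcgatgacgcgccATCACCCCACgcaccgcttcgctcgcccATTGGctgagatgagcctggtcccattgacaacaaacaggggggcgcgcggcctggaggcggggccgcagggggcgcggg
The SRE-1 letters occurred in 12 of the 35116 windows (0.0342%). The looser TCACNCCAC, which overlaps it, occurred in 310 windows and among the members again in SREBF2. CCAAT was in 6 of the 10 member windows and in 32.01% of all windows. Each of the 5 sterol genes with an entry had a window with CCAAT, and the CH25H window had none. One match for each of the other 4 sterol genes is shown with the box in capitals, read along the strand of the gene; the one of DHCR7 lies inside the span that GENCODE gives to the gene.
HMGCS1, chr5:43313553-43313577, minus strand: tttccttttgATTGGtagaagccgg
INSIG1, chr7:155297698-155297722, plus strand: ccggcctcccATTGGttgcggccgc
IDI1, chr10:1049222-1049246, minus strand: cgaaagcgtgATTGGctggcggcgt
DHCR7, chr11:71448473-71448497, minus strand: ggctcctcgaCCAATcacggggcgc
A match describes these letters and not binding of a factor.

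CH25H (chromosome 10, 89205629 to 89207314, minus strand, GRCh38), a gene whose annotated transcript is 1686 bases long, had 14.3 FPKM in poly(I:C)-treated RLKO cells, against 0.0344 FPKM in untreated RLKO cells. In WT it had 30.6 FPKM after poly(I:C), against 0.0245 FPKM in untreated cells. Both treated groups were thus high and both untreated groups near 0. On the spike-in scale, in which each group is divided by the level of the ERCC RNAs added to its samples, the log2 change with a pseudocount of 1 was 3.76 in RLKO and 4.67 in WT. The size rests on the pseudocount, as untreated levels were near 0: with 0.1 the changes were 6.596 and 7.595, and with none 8.52 and 9.67. The ERCC factor of treated over untreated cells was 1.13 in RLKO and 1.53 in WT, so this scale lowers log2 changes by up to 0.18 and 0.61 relative to FPKM as deposited. Of 12181 protein-coding genes that passed the filter, CH25H had the 22nd highest change in RLKO and the 23rd highest in WT, where the medians of these genes were -0.24 and -0.70. In the authors' deposited table it had q = 1.00 (p = 0.0307) in RLKO and q = 0.537 (p = 0.243) in WT and was not called.

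**Figure D1:**
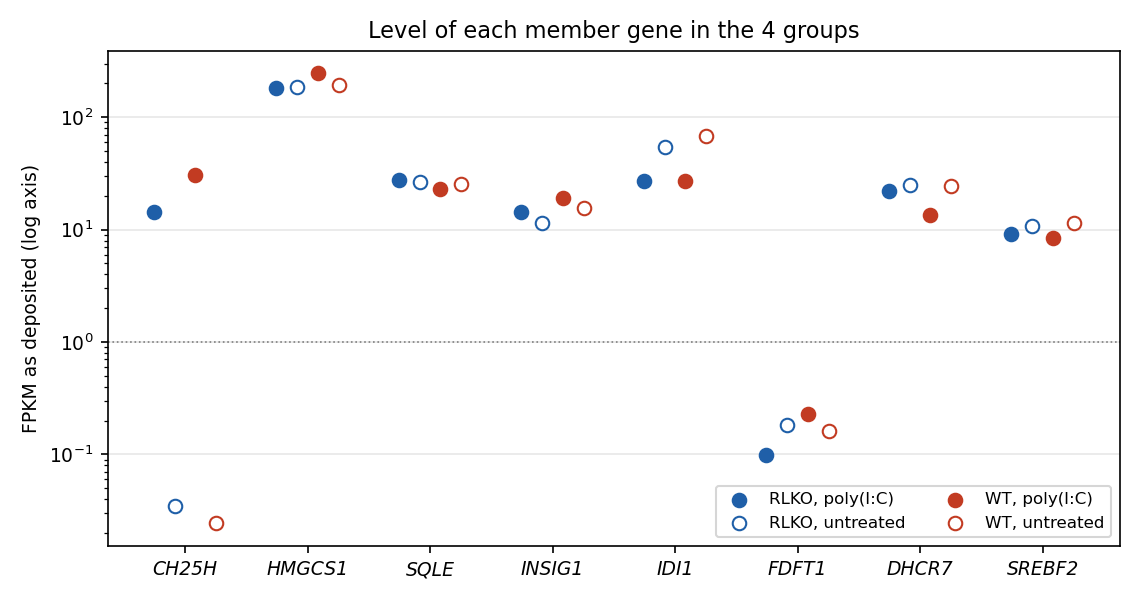
FPKM as deposited (log axis) of the 8 genes in the 4 groups, RLKO in blue and WT in red, filled circles after poly(I:C) and open circles untreated; a circle is 1 deposited value without an error, and the dotted line marks 1 FPKM. CH25H stood at 14.3 and 30.6 FPKM in the treated groups, HMGCS1 between 182 and 246 FPKM in the 4 groups, and FDFT1 under 1 FPKM in each.

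Between the genotypes, CH25H was lower in treated RLKO than in treated WT cells, at 0.467 of the WT level in FPKM and by -0.90 on the log2 spike-in scale. The response in RLKO was smaller by 0.91 on the log2 scale, whereas for protein-coding genes the median difference, RLKO minus WT, was 0.47. Of the 12181 genes, 5.40% had a lower difference than CH25H. None of these differences between genotypes was tested.

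Genes with large changes from a starting level above 0 but under 0.1 FPKM, CH25H among them, were not called. In RLKO, the log2 change was 3 or more for 34 protein-coding genes. Of these, 9 had more than 0 but under 0.1 FPKM untreated and Cuffdiff called 0 of the 9. It called 6 of 6 from 0.1 to under 1 FPKM untreated, and 15 of 17 with at least 1 FPKM untreated. In WT, 61 genes had such a change. Cuffdiff called 0 of 10 in the low band, 14 of 15 from 0.1 to under 1 FPKM and 29 of 31 at 1 FPKM or more. Among genes listed at 0 untreated, 1 of 2 was called in RLKO, which was IFNL3, and 3 of 5 in WT, which were IFNL3, FAP and TULP2. The genes in the low band that reached 10 FPKM after treatment in both genotypes were CH25H, IFNB1, IFNL1, IFNL2, OAS2, RAET1L and RSAD2. The bands were chosen with these values known.

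**Figure D2:**
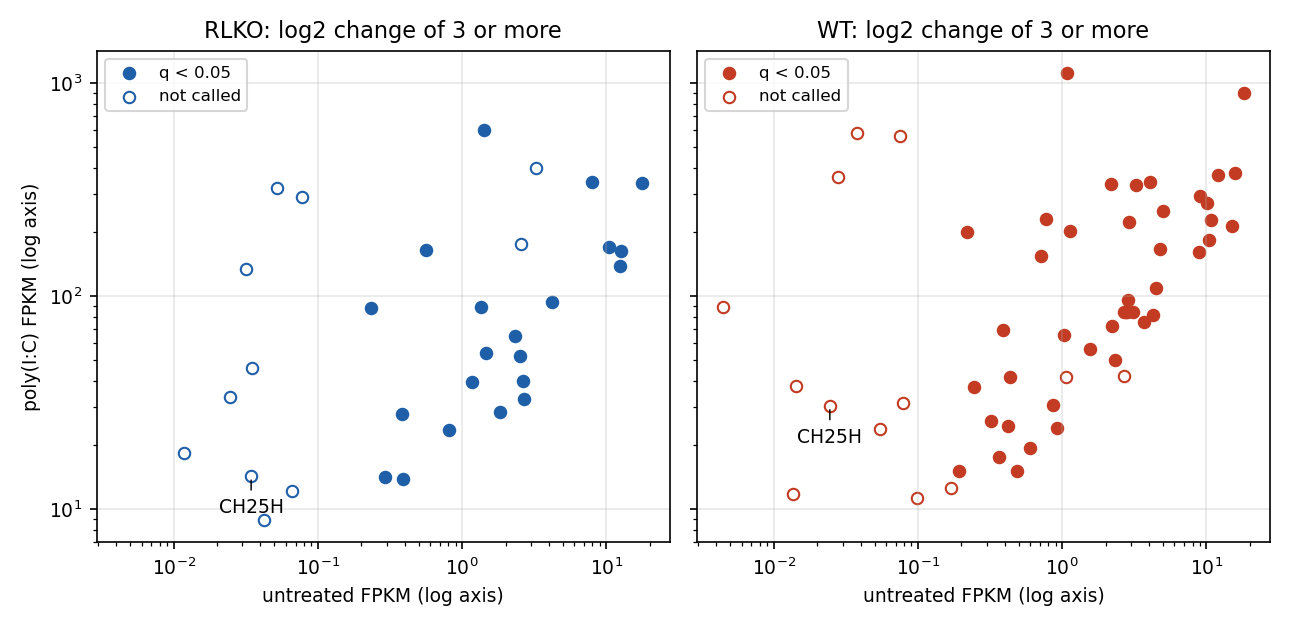
Level after poly(I:C) (vertical, log axis) against untreated level (horizontal, log axis), in FPKM as deposited, for the protein-coding genes whose log2 change was 3 or more and whose untreated value was above 0, in RLKO (left, blue) and WT (right, red); filled circles had q under 0.05 in the authors' deposited table. Under 0.1 FPKM untreated, 0 of 9 genes in RLKO and 0 of 10 in WT were called, CH25H among them.

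The annotated protein-coding neighbour within 10000 bases of CH25H is LIPA, which encodes lysosomal acid lipase. It is on the same strand, and its annotated end lies 6254 bases before CH25H. LIPA had 46.8 FPKM in treated and 52.4 FPKM in untreated RLKO cells, and 99.6 FPKM in treated and 46.3 FPKM in untreated WT cells (q = 1.00 and 0.407 in the authors' deposited table). Its treated level was thus below the untreated one in RLKO and above it in WT. Whether reads running on from LIPA enter the value of CH25H was not tested.

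Over the 4 groups, the protein-coding genes nearest to CH25H in pattern were OAS2, CXCL11, MX1, PPP1R15A and TNFAIP3. Likeness was the root mean square distance of the 4 log2 spike-in-scaled levels, each centred on its own mean, and ranged from 0.118 for OAS2 to 0.231 for TNFAIP3. MX1, an antiviral GTPase, had 23.5 FPKM in treated and 0.812 FPKM in untreated RLKO cells, and 41.8 FPKM in treated and 0.438 FPKM in untreated WT cells. It rose in both, with q = 0.0107 in RLKO and q = 0.00180 in WT in the authors' deposited table. PPP1R15A and TNFAIP3 also rose in both, each with the same q-values as MX1. OAS2 and CXCL11, the second listed at 0 in both untreated groups, were called in neither. With 4 values a gene this is a description of levels.

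HMGCS1 (chromosome 5, 43289395 to 43313512), the synthase that makes HMG-CoA, was the most abundant of the 8. It had 182 FPKM in treated and 186 FPKM in untreated RLKO cells, and 246 FPKM in treated and 191 FPKM in untreated WT cells. Its spike-in-scaled log2 change was -0.21 in RLKO (q = 1.00 in the authors' deposited table) and -0.25 in WT (q = 0.742). The WT sign depends on the scale, since the deposited FPKM was 1.28 times the untreated level, and with median-ratio scaling over protein-coding genes the RLKO change too lay above 0. An antisense gene, AC114947.2, overlaps 1445 bases at the 3′ end of HMGCS1. It had 3.96 FPKM in treated and 1.11 FPKM in untreated RLKO cells, and 17.8 FPKM in treated and 0.581 FPKM in untreated WT cells. Whether the libraries kept the strand was not given in the sources used here, so reads of the overlap cannot be told apart. The same holds for the antisense partners of IDI1, DHCR7 and SREBF2, which reached at most 3.02 FPKM.

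IDI1 (chromosome 10, 1039152 to 1049170), which interconverts the activated isoprene units, had the lowest changes of the 8 in both genotypes. It had 27.3 FPKM in treated and 54.4 FPKM in untreated RLKO cells, a log2 change of -1.14 on the spike-in scale (q = 1.00 in the authors' deposited table). In WT it had 27.0 FPKM in treated and 67.7 FPKM in untreated cells, a log2 change of -1.90 (q = 0.557). The treated groups were alike in FPKM and both below the untreated groups. Of protein-coding genes, 3.31% had a lower change in RLKO and 11.3% in WT. Of 2289 genes within a factor of 2 of IDI1 in untreated WT cells, 6.25% were called in WT, and of 527 others among them with a change as low or lower, 24.5% were called. IDI2-AS1 overlaps IDI1 on the opposite strand over 5050 bases and had 0.358 and 0.618 FPKM in treated and untreated RLKO cells, and 3.02 and 0.506 FPKM in treated and untreated WT cells.

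SQLE (chromosome 8, 124998497 to 125022283), the squalene epoxidase, had 27.7 FPKM in treated and 26.3 FPKM in untreated RLKO cells. In WT it had 23.1 FPKM in treated and 25.3 FPKM in untreated cells. The 4 values lay close together, and the spike-in-scaled log2 changes were -0.10 in RLKO and -0.71 in WT, the second near the median of all protein-coding genes. The sign depends on the scale in RLKO, where FPKM was 1.05 times the untreated level, and with median-ratio scaling it lay above 0 in both genotypes.

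DHCR7 (chromosome 11, 71428193 to 71452868), the reductase of the last step to cholesterol, had 21.97 FPKM in treated and 25.1 FPKM in untreated RLKO cells. In WT it had 13.4 FPKM in treated and 24.2 FPKM in untreated cells, so that treated WT stood apart from the other 3 groups. The log2 changes were -0.35 in RLKO and -1.39 in WT (q = 1.00 and 0.382 in the authors' deposited table). Their difference, 1.03, was the largest of the 8, and 77.1% of protein-coding genes had a lower one.

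FDFT1 (chromosome 8, 11795573 to 11839309), the squalene synthase, was listed at 0.0993 FPKM in treated and 0.184 FPKM in untreated RLKO cells, and at 0.228 FPKM in treated and 0.162 FPKM in untreated WT cells. It did not reach 1 FPKM in any group, and the table marks it as not tested. The enzymes before and after it, FDPS and SQLE, were between 42.4 and 92.9 FPKM and between 23.1 and 27.7 FPKM in the 4 groups. Of 10433 protein-coding rows with a half-life in the table, 906 were under 1 FPKM in each group and 182 of those were at 0. The deposited label of the half-lives names no cells, so the count cannot tell failed estimates from genes not expressed in these cells. Whether the FDFT1 value is a failed estimate was not tested, and it is left out of the medians given here.

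SREBF2 (chromosome 22, 41833079 to 41907308) had 9.21 FPKM in treated and 10.8 FPKM in untreated RLKO cells, and 8.34 FPKM in treated and 11.4 FPKM in untreated WT cells. Its log2 changes of -0.37 in RLKO and -0.96 in WT were both below 0 and not called (q = 1.00 and 0.663 in the authors' deposited table). INSIG1 (chromosome 7, 155297776 to 155310235), which retains the SREBP escort SCAP in the endoplasmic reticulum and is itself an SREBP target, had 14.3 FPKM in treated and 11.4 FPKM in untreated RLKO cells. In WT it had 19.1 FPKM in treated and 15.5 FPKM in untreated cells. Both treated values exceeded their untreated ones in FPKM, by 1.25 and 1.23 times. On the spike-in scale the changes were 0.13 in RLKO and -0.30 in WT, so the sign in WT depends on the scale. MIR33A, which lies within SREBF2 over 69 bases, was listed at 0 in each group. Whether these libraries hold so short an RNA was not tested.

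Across the 6 sterol genes with at least 1 FPKM, the spike-in-scaled median log2 change was -0.28 in RLKO, with a range of -1.14 to 0.13, and -0.84 in WT, with a range of -1.90 to -0.25. The medians of all 12181 protein-coding genes were -0.24 and -0.70, and 3 of the 6 lay below that median in RLKO and 4 of the 6 in WT. On deposited FPKM the 6 genes had medians of -0.11 and -0.26, against -0.10 and -0.17 for protein-coding genes, and with median-ratio scaling 0.019 and -0.068. The change was higher in RLKO than in WT in 6 of 6, by a median of 0.60, where 73.3% of protein-coding genes were higher in RLKO and the median was 0.47. The count was 5 of 6 on deposited FPKM and 4 of 6 with median-ratio scaling. Treated RLKO cells were above treated WT cells by a median of 0.20, and untreated RLKO cells were below untreated WT cells by -0.34, with all protein-coding genes at 0.25 and -0.24. The nearest protein-coding genes to the mean pattern of the 6, by the same distance, were APBB1IP, WDR5, EIF4G1, CCDC107 and RANGAP1, at 0.00455 to 0.0114. That mean is taken over WT changes from -1.90 to -0.25, so these distances do not describe any single member.

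The wider route was read from a list of 21 enzymes from acetyl-CoA to cholesterol, 20 of which reached 1 FPKM. In RLKO none was called, where 0.539% of all kept rows were. There 20 of 20 changes lay below 0, as did 80.1% of protein-coding genes. The RLKO median was -0.27, or -0.11 on deposited FPKM and 0.005 with median-ratio scaling. In WT 1 of 20 fell, where 3.35% of all kept rows did, and none rose, where 4.48% did. In WT 19 of 20 changes lay below 0, as did 78.4% of protein-coding genes. The WT median was -1.33, or -0.75 on deposited FPKM and -0.55 with median-ratio scaling. On the spike-in scale 17 of 20 lay below the WT protein-coding median. The RLKO and WT protein-coding medians were -0.096 and -0.17 on deposited FPKM, and 0.009 and 0.007 with median-ratio scaling. PMVK, phosphomevalonate kinase, was the one that fell: it had 16.1 FPKM in treated and 23.9 FPKM in untreated RLKO cells, and 8.56 FPKM in treated and 33.3 FPKM in untreated WT cells. Its log2 changes were -0.71 in RLKO and -2.42 in WT (q = 1.00 and 0.00180 in the authors' deposited table). The 16 enzymes that are not members had a WT median of -1.38. The most abundant of them, FDPS, which makes farnesyl diphosphate, and LBR, a sterol reductase that is also the lamin B receptor, had WT changes of -1.72 and -1.87 without passing.

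**Figure D3:**
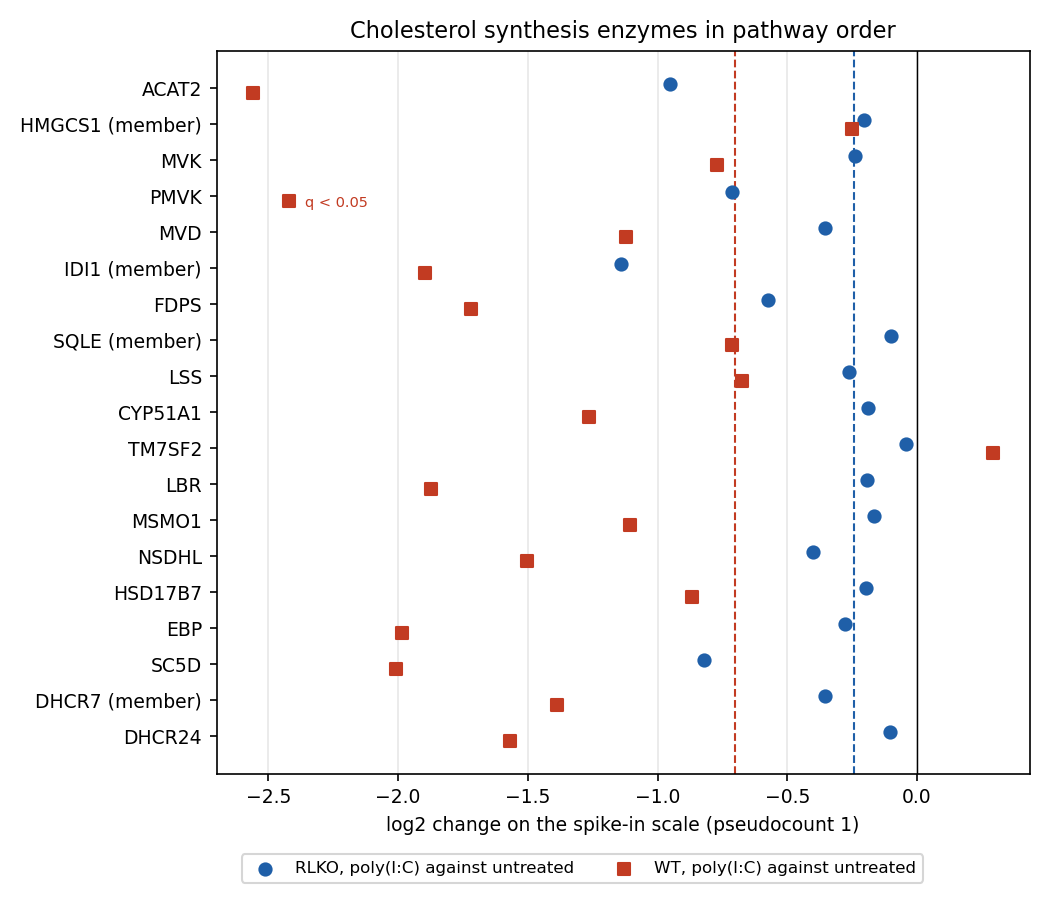
Log2 ratio of poly(I:C) over untreated on the spike-in scale (horizontal axis, pseudocount 1) of 19 of the 20 cholesterol synthesis enzymes with at least 1 FPKM, top to bottom along the route, RLKO as blue circles and WT as red squares; dashed lines are the medians of all protein-coding genes, -0.24 in RLKO and -0.70 in WT. The WT squares spread from -2.56 to 0.29 and PMVK alone was called, while the RLKO circles lie between -1.14 and -0.04.

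A further 2 enzymes are named after their values were seen. ACAT2, which starts the route, had the lowest WT change of the list at -2.56 and was not called, and TM7SF2, a sterol reductase, had the single WT change above 0, at 0.29.

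Among the 10 genes of the SREBP machinery, none was called in RLKO, where 0.539% of all kept rows were. In WT 1 of the 10 fell, where 3.35% of all kept rows did, and at q under 0.01 it was no longer called. INSIG2, the second retention protein, had 12.8 FPKM in treated and 23.04 FPKM in untreated RLKO cells, and 4.89 FPKM in treated and 24.8 FPKM in untreated WT cells. Its log2 change was -0.97 in RLKO (q = 1.00 in the authors' deposited table), and in WT it fell by 2.68 on the log2 scale (q = 0.0274). Its paralogue INSIG1, given above, had 0.13 in RLKO and -0.30 in WT; both paralogues had short half-lives in the deposited table, 2.74 h for INSIG2 and 2.82 h for INSIG1. SREBF1, which encodes SREBP1, had log2 changes of -0.56 in RLKO and -1.08 in WT. The median of these 10 genes was -0.25 in RLKO and -0.98 in WT, or -0.082 and -0.43 on deposited FPKM.

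The list of liver X receptors, which answer to oxysterols, and of their targets held the single call upward among the lists. Of 6 at 1 FPKM or more, MYLIP rose in WT, where 4.48% of all kept rows did. None of the 6 was called in RLKO, where 0.539% of all kept rows were. MYLIP, a ubiquitin ligase that marks the LDL receptor for breakdown, had 2.57 FPKM in treated and 1.87 FPKM in untreated RLKO cells, and 9.68 FPKM in treated and 1.44 FPKM in untreated WT cells. Its log2 changes were 0.19 in RLKO and 1.67 in WT (q = 1.00 and 0.00180 in the authors' deposited table). The receptor NR1H2 had 24.7 and 23.6 FPKM in treated and untreated RLKO cells and 25.9 and 26.1 FPKM in treated and untreated WT cells, and LPCAT3, a phospholipid acyltransferase, had WT values of 20.8 FPKM treated and 13.4 FPKM untreated. The WT median of this list was -0.38 after spike-in scaling and 0.17 on deposited FPKM.

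Uptake and transport genes had no call among 10 in either genotype. Over all kept rows 0.539% were called in RLKO and 7.83% in WT, the background for each list of this paragraph. The medians of uptake and transport genes were -0.31 in RLKO and -0.48 in WT, or -0.13 and 0.0017 in deposited FPKM. NPC2, a lysosomal sterol carrier, had the lowest changes of this list in both genotypes: 155 FPKM in treated and 368 FPKM in untreated RLKO cells, and 52.8 FPKM in treated and 380 FPKM in untreated WT cells (q = 1.00 and 0.0726 in the authors' deposited table). Of 8 isoprenoid branch genes none was called, and the medians were -0.22 in RLKO and -0.91 in WT, or -0.063 and -0.39 on deposited FPKM. FNTA and PGGT1B, subunits of the protein prenyltransferases, had WT changes of -1.09 and -1.68. Of the 7 genes of oxysterol metabolism and sensing, 3 reached 1 FPKM and none was called. These were CH25H, HSD3B7, at 8.34 and 7.47 FPKM in treated and untreated RLKO and 4.35 and 6.33 FPKM in treated and untreated WT cells, and GPR183, the receptor of a dihydroxycholesterol made downstream of CH25H, which was between 0.334 and 1.04 FPKM in the 4 groups.

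**Figure D4:**
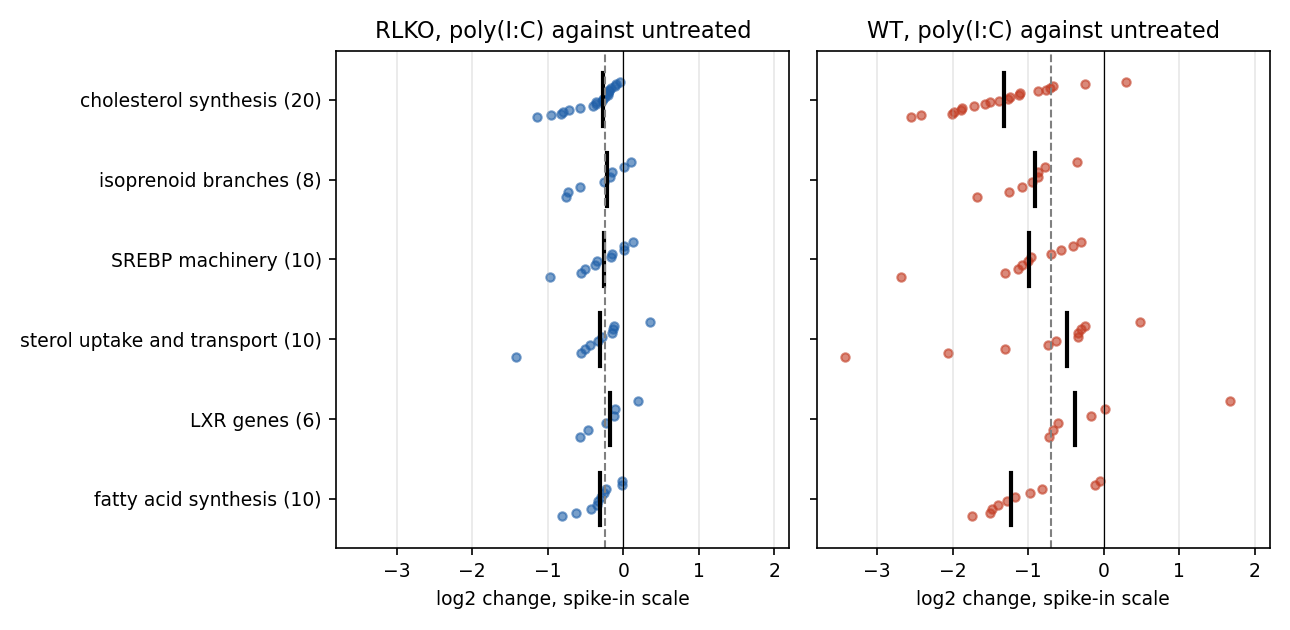
Log2 ratio of poly(I:C) over untreated, spike-in scale, of each gene with at least 1 FPKM in 6 lists (number of genes in parentheses), RLKO at the left and WT at the right; points are genes, black bars list medians, and the dashed line the median of all protein-coding genes. The cholesterol synthesis median was -0.27 in RLKO and -1.33 in WT, and the LXR gene at the far right of the WT panel is MYLIP at 1.67.

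The transcripts of the members differed from each other in the features deposited with them. CH25H was the shortest, with 1686 bases and a 5′ untranslated part of 21 bases; 12.3% of protein-coding genes had a shorter transcript and 1.19% a shorter 5′ part. Its half-life is not given in the table. The sterol members with at least 1 FPKM had half-lives from 2.82 h for INSIG1 and 4 h for IDI1 to 11.5 h for DHCR7, where the median of 9527 protein-coding genes was 4 h. GC content ran from 37.6% in SQLE and 38.8% in HMGCS1 to 51.7% in DHCR7, around a median of 44.5%. Its deposited label is GC alone, and whether it covers the transcript or the gene with introns was not given. UU and UA, the dinucleotides after which RNase L is known to cut, made up 7.39% of the dinucleotides of the SREBF2 transcript, 7.92% of DHCR7, 13.1% of CH25H, 14.0% of SQLE, 15.5% of INSIG1, 16.1% of HMGCS1 and 16.9% of IDI1, with a median of 11.8% over protein-coding genes.

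As to the samples, KRT8 and KRT18, keratins of simple epithelium, were between 256 and 944 FPKM, and EPCAM was low, between 0.558 and 1.03 FPKM. The 5 epithelial markers summed to 1609 FPKM in treated and 1633 FPKM in untreated RLKO cells, and to 584 FPKM in treated and 1174 FPKM in untreated WT cells. These sums were mostly KRT8 and KRT18. KRT19 had 46.3 FPKM in treated and 54.0 FPKM in untreated RLKO cells. In WT it had 6.64 FPKM in treated and 14.4 FPKM in untreated cells. CDH1 was between 2.93 and 4.52 FPKM in the 4 groups. The 8 markers of leukocytes, endothelium and fibroblasts summed to 18.7 FPKM in treated and 25.9 FPKM in untreated RLKO cells, and to 32.6 FPKM in treated and 25.8 FPKM in untreated WT cells. These sums were mostly CD68 at 15.9 to 24.1 FPKM and COL1A1 at 2.06 to 7.17 FPKM, and 3, 2, 0 and 3 of the 8 markers were at 0 in treated RLKO, untreated RLKO, treated WT and untreated WT cells. The part of these shifts in the sterol gene values was not tested. In these bulk samples fewer cells and less RNA per cell cannot be told apart.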

How the data were processed

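Per the series' design text and the labels, total RNA of 12 A549 samples was sequenced after rRNA removal, with ERCC RNAs added beforehand. The submitters' processing notes name FastQC, Trimmomatic 0.32, TopHat2 2.0.6, Bowtie2 2.0.2, Cuffdiff 2.2.1 and GRCh38.p12. The authors deposited 1 table with FPKM, 1 value per group, and with p-values and q-values of the poly(I:C) response in each genotype. Half-lives in hours, lengths in bases and GC percent stand in the same deposited table. No column holds a single sample, so depth and replicate spread are unknown.

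Left out were 86 rows of failed estimates and 90 rows with repeated identifiers. Rows reaching 1 FPKM in 1 group were kept (22087, of which 12181 protein-coding in GENCODE 29). The factor of a group was the median ratio of its ERCC rows to their geometric mean across groups, taken over 49 rows averaging 1 FPKM or more. Log2 changes carry a pseudocount of 1 and so understate low genes. The threshold was q under 0.05. Dinucleotides were counted in the GENCODE transcript of the deposited length, and promoters came from RefSeq (GRCh38.p14). The members and lists were chosen with earlier results of these data known. Genes named were the 8 members, up to 4 called genes per list or, with fewer than 2 called, the 2 most abundant besides, and the 5 nearest in pattern; a few that this rule gives are not reported here. The scaling was run on simulated data with known shifts, in which the ERCC rows were left unshifted by design. This checks the arithmetic and not whether the real ERCC RNAs were added evenly. Computation used Python 3.11.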

Additional observations from a re-analysis of the deposited data

How the results depend on the processing

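No paired analysis was possible because the table has 1 value per group and no column carries a replicate number; leaving out a replicate was not possible for the same reason. The count of called members was 0 in both genotypes at q under 0.01, without a filter and with a filter of 10 FPKM. At an unadjusted p under 0.05 it was 1 in RLKO, where 3.67% of all kept rows passed. The cholesterol synthesis list then had 6 of 20 called in WT in place of 1, where 19.2% of all kept rows passed. The call of INSIG2 in WT was lost at q under 0.01. The pseudocount moved CH25H most, to 8.52 in RLKO and 9.67 in WT without one, and scaling moved the sterol genes. On deposited FPKM, the RLKO and WT medians were -0.11 and -0.26 for the sterol members, -0.11 and -0.75 for cholesterol synthesis, and -0.096 and -0.17 for protein-coding genes. The sterol members' median difference, RLKO minus WT, was then 0.20 between responses, 0.073 between treated cells and -0.055 between untreated cells. With median-ratio scaling over protein-coding genes, the RLKO and WT medians were 0.019 and -0.068 for sterol members, 0.005 and -0.55 for cholesterol synthesis, and 0.009 and 0.007 for protein-coding genes. The differences were 0.12 between responses, -0.027 between treated cells and -0.079 between untreated cells. By construction that scaling puts the median gene near 0. Signs of single members changed for 4 of 21 values on deposited FPKM and 7 of 21 with median-ratio scaling, all in HMGCS1, SQLE or INSIG1, FDFT1 not counted; none changed with another pseudocount or stricter ERCC rows. Without a pseudocount the protein-coding median in WT was -0.82. Without a filter it was -0.067 in RLKO and -0.11 in WT, and the sterol median in WT, with FDFT1 taken in as listed, was -0.71. With at least 10 FPKM the WT medians were -1.01 for protein-coding genes, -1.44 for cholesterol synthesis and -0.84 for sterol members. The sterol members thus lay above the protein-coding median in WT with that filter, and below it in the main setting. Why values moved was otherwise not tested. A value counted as moved past 0.1 on the log2 scale, since no replicate spread was available.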

Other observations

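Genes of fatty acid synthesis, which SREBP1 drives, were at 1 FPKM or more in 10 of 11 cases. None of the 10 was called in either genotype, where 0.539% of all kept rows were called in RLKO and 7.83% in WT. The median log2 change of the 10 genes was -0.31 in RLKO and -1.22 in WT, or -0.14 and -0.62 on deposited FPKM. In WT 8 of the 10 lay below the protein-coding median. ACLY, the enzyme that makes cytosolic acetyl-CoA, had 177 FPKM in treated and 187 FPKM in untreated RLKO cells, and 130 FPKM in treated and 224 FPKM in untreated WT cells. FADS2, a fatty acid desaturase, had 70.2 and 84.0 FPKM in treated and untreated RLKO cells, and 43.4 and 97.1 FPKM in treated and untreated WT cells. FASN, the fatty acid synthase, singled out after its values were seen, had 33.1 FPKM in treated and 45.5 FPKM in untreated RLKO cells, and 87.3 FPKM in treated and 61.6 FPKM in untreated WT cells. ACACA, which encodes the first enzyme of that route, was listed at 0 in each group, as a further gene of lipid synthesis besides FDFT1 with a value near or at 0. Of the 75 distinct genes of the 7 lists, 8 were under 1 FPKM in each group.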
